A study of Mus musculus with 27 samples.

Results

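Nuclei of meningeal and perivascular fibroblasts were described in single-nucleus RNA-seq of mouse hippocampus. These cells belong to the membranes around the brain and to the walls of its vessels. They were chosen by a marker rule. A nucleus with 200 to 4000 detected genes and at most 5% mitochondrial UMIs (unique molecular identifiers, each counting 1 captured RNA molecule) was a member if at least 3 of Slc6a13, Bnc2, Col1a2, Slc47a1, Ranbp3l, Dcn and Col1a1 were detected. It also had at most 1 UMI of Slc17a7, Gad1 and Gad2 together, at most 1 of Mog and Mag together, at most 1 of Abcc9 and at most 1 of Flt1, which mark neurons, oligodendrocytes, mural cells and endothelial cells. Of 241938 barcodes, 221281 were kept and 803 were members (0.363% of the kept nuclei).

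Each of the 27 libraries came from the hippocampi of 1 mouse of 8 to 10 months. The sources differ on the exact age. The labels give 5 Cgas+/+ mice (3 male, 2 female), 2 Cgas+/- and 2 Cgas-/- mice (all male), and, with the P301S transgene, 6 mice (3 male, 3 female) for each of the same 3 Cgas genotypes. The names of these groups begin with P301S, which is human tau with a dementia-linked mutation, made from the mouse Prnp promoter. The Cgas alleles were lost or kept in the germline and so in all cells. Cgas encodes the sensor of cytosolic DNA that signals through STING to type I interferon.

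Brain fibroblasts lie outside the parenchyma. Pial and arachnoid cells line the surface of the brain, dural cells lie further out, arachnoid barrier cells seal the subarachnoid space with tight junctions, and perivascular fibroblasts accompany larger vessels into the tissue. They lay down collagens and laminins, make retinoic acid and BMP ligands, and carry a large set of solute transporters that face the cerebrospinal fluid. They also divide and deposit scar matrix after injury.

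Depth and library structure limited what could be compared. The libraries held 7246 to 14770 barcodes. Members had a median of 2710 UMIs and 1564 genes, while the median of all kept nuclei ran from 1926 to 7586 UMIs over the libraries. The summed member counts of 1 mouse were 24830 to 525089 UMIs (median 53230). The file headers name 2 versions of Cell Ranger, 3.0.2 in 12 libraries and 3.1.0 in 15, and all libraries without P301S that had lost a Cgas allele carry 3.0.2. Pairs of libraries shared 8 to 48 barcodes (median 21), and no barcode was a member in more than 1 library. The targeted gene could not check the labels in these nuclei. Cgas gave 5 UMIs over all members, 1 in every group but Cgas-/-, which had 0.

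The 803 nuclei were spread unevenly. Cgas+/+ replicate 5 held 208 members, and P301S Cgas+/- replicate 3 held 121. These libraries stood apart from the rest and together supplied 41.0% of the members. The other 25 libraries held 9 to 39 members each. Shares and gene tests, which treat each mouse as 1 value, are therefore also given without both libraries. Levels of subclusters, gene lists and leading genes are pooled over all members, so both weigh heavily in them.

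The rule genes are given first as a description of what was selected, with no test. Levels are CPM (UMIs of the gene per 1000000 UMIs) of the member nuclei, so each is compared only with the same gene in other nuclei. Slc6a13, which encodes a GABA and taurine transporter (GAT2), was detected in 64.3% of members and in 0.276% of the other kept nuclei. It reached 649 CPM against 0.992 CPM, and its level in members was 164 to 1089 CPM over the 27 libraries. Col1a2, a chain of type I collagen, was detected in the largest share of members (73.0%), at 417 against 0.983 CPM. Ranbp3l, which encodes a regulator of BMP signalling through nuclear export of SMADs, was at 1720 against 16.3 CPM and was found in 69.7% of members. Bnc2, a zinc-finger transcription factor gene, was at 1407 against 4.78 CPM. Slc47a1, Dcn (the proteoglycan decorin) and Col1a1 were each found in under 40% of members. Slc47a1 was detected in 23.9%, Dcn in 39.2% and Col1a1 in 27.5%. Apart from Col1a1, which was missing in 1 library, each rule gene was detected in members of all 27 libraries.

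The threshold lay inside a continuous range. Exactly 3 rule genes were detected in 514 members, 4 in 226, 5 in 55 and 6 in 8. A further 1191 nuclei had exactly 2 and lay just outside. The 12 fibroblast genes that the rule did not use (Col3a1, Lum, Pdgfra, Fbln1, Lama1, Cdh11, Foxc1, Tbx18, Mmp2, Slc13a3, Cyp1b1 and Aldh1a2) summed to 979 CPM in the nuclei with 2 genes, to 2970 CPM in those with 3 and to 3480 CPM in those with 4.

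Those 12 genes served to check the label. Their summed level in members was 1633 to 6162 CPM over the libraries, against 321 to 458 CPM in all other kept nuclei of the same libraries. Members exceeded the other nuclei in every library, and 27 members (3.36%) held no UMI of any of the 12. Cdh11, 1 of the 12, did not separate members (367 CPM) from the other nuclei (355 CPM). It gave most of the pooled sum of 388 CPM in the other nuclei. A member whose only UMIs of the 12 were of Cdh11 is not among those 27. Within the members the sum differed between the subclusters described further on. It was 5967 CPM in subcluster 1 and 1220 CPM in subcluster 2, and in subcluster 9 (12 nuclei), at 203 CPM, it was below the other nuclei, so these genes do not check the label there. Markers of other classes are given as a description only, since the rule capped Abcc9, Flt1, Slc17a7, Mog and Mag and the vascular classes were gated on their own markers. The 7 mural markers summed to 625.4 CPM in members, 55.2 CPM in the other nuclei and 6548 CPM in the 1499 nuclei gated as mural. The 7 endothelial markers summed to 247 CPM in members, 58.9 CPM in the other nuclei and 15546 CPM in the 1189 endothelial gated nuclei. Astrocyte markers summed to 2328 CPM (1849 CPM in the other nuclei), of which the glutamate transporter gene Slc1a3 gave 1417 CPM. Excitatory neuron markers summed to 331 CPM (1880 CPM in the other nuclei) and oligodendrocyte markers to 208 CPM (1619 CPM). Without the capped genes the sums in members and in the other nuclei were 622 and 52.6 CPM for mural, 214 and 44.99 CPM for endothelial, 307 and 1777 CPM for excitatory neuron and 189 and 1439 CPM for oligodendrocyte markers. The caller Scrublet marked 267 members (33.3%) as doublets against 7.42% of all kept nuclei. The share marked ran from 0% to 100% of a library's members (median 34.6%), with none marked in 3 libraries and every member in another 3. They were kept in the main values. Their removal, given as an alternative, left 536 members and only 14 libraries with at least 10.

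The 20 genes with the highest ratio to the other nuclei are grouped by what they encode. Of these, 4 (Slc6a13, Slc47a1, Col1a2 and Bnc2) are genes of the membership rule, which fixed their high ratios. The ratio was highest for Fam180a, a gene of little known function, at 75.0 against 0.1004 CPM (747-fold). Among solute transporters the rule genes Slc6a13 and Slc47a1 were present with 3 others, of which Slc6a12 and Slc47a2 are their neighbours on the genome. Slc6a13 was 654-fold higher, the multidrug extrusion transporter gene Slc47a1 573-fold, the organic anion transporter gene Slc22a6 569-fold, the betaine transporter gene Slc6a12 432-fold and Slc47a2 230-fold.

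Positions of both transporter pairs are on mm10, which is GRCm38. Slc6a13 lies at chr6:121300227-121337733 on the plus strand, and Slc6a12 starts 5342 bases beyond its end, at chr6:121343076-121365775. Slc47a1 lies at chr11:61343401-61378345 on the minus strand, and Slc47a2 lies 540 bases downstream of it at chr11:61301631-61342860. Pre-mRNA reads were counted, so RNA running past the end of the first gene of a pair would be counted for the second, and this was not tested.

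Transcription factor and cofactor genes were also among the 20, with Prdm6 (394-fold), Foxd1 (385-fold), Tbx18 (345-fold), the rule gene Bnc2 (295-fold) and Eya2 (220-fold). Foxd1 and Tbx18 are known from mesenchyme of the embryo. The matrix genes were the rule gene Col1a2 (424-fold), Lama1 (310-fold) and Col3a1 (227-fold), of which Lama1 encodes the laminin chain of the pial basement membrane. Aldh1a2, which encodes an enzyme of retinoic acid synthesis, was 385-fold higher, Aox3, an aldehyde oxidase gene, 206-fold and Anpep, which encodes aminopeptidase N, 198-fold. Gm5860 (244-fold) and Gm31409 (202-fold) are annotated as long intergenic RNAs. Against mural nuclei alone the ratios of the 20 genes were 2.35-fold (Anpep) to 1139-fold (the rule gene Bnc2). Gm31409 was 2.44-fold and Tbx18 3.73-fold higher than in mural nuclei. Without both rich libraries Aldh1a2 stood at 175 in place of 264 CPM (255-fold) and Gm5860 at 143 in place of 94.9 CPM (368-fold), and the other leading genes moved by less than 1.5 times.

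Among the genes whose pooled level over 9 groups of nuclei (members, the remaining nuclei and 7 gated classes) followed Slc6a13 most closely were Foxd1 (r = 0.981), Lama1 (0.974), March6 (0.973) and Col3a1 (0.973). These r values use log2(CPM + 1) and describe 9 pooled points from the same libraries. The rule fixed the high level of Slc6a13 in members, so genes high in members follow it. The remaining nuclei also include the 7 gated classes, so the points are not separate. March6 was far less selective than the others. It stood at 481 CPM in members and 110 CPM in the other nuclei.

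Clustering the members alone gave 11 subclusters, whose leading genes are a description because they formed the clusters. Subcluster 1 held 197 nuclei (24.5%), came from all 27 libraries and had all 7 perivascular fibroblast markers raised (Lama1, Cyp1b1, Col15a1, Abca9, Abca8a, Lum and Pdgfra), so it was called perivascular fibroblast-like. Of the 7 mural markers 3 were raised there as well. Scrublet marked 80 of these 197 nuclei as doublets, against 267 of all 803 members. Basement membrane genes were prominent in subcluster 1. Lama1 stood at 3564 CPM against 719 CPM in the other members, and Col4a6, a type IV collagen chain of basement membranes, at 1642 against 297 CPM. Col15a1 was at 347 against 31.6 CPM, and the receptor gene Pdgfra at 626 against 123 CPM. Its leading gene by fold was the unannotated Gm30624, at 815 against 34.1 CPM.

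Subcluster 2 (170 nuclei, 21.2%, all 27 libraries) was marked by transporters. Slc47a1 was detected in 98.8% of its nuclei, at 2283 CPM against 44.8 CPM in the other members. The bicarbonate transporter gene Slc4a10 reached 6208 against 220 CPM and the matrix-associated Adamtsl3 2713 against 34.8 CPM. Rspo3, which encodes an enhancer of WNT signalling, was at 892 against 37.5 CPM, and Foxp2 at 3101 against 397 CPM. Its markers tied between dural fibroblast (4 of 5) and arachnoid barrier (4 of 6), so it stayed unnamed.

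Subclusters 3, 4 and 5 did not meet the rule for a name. Their pooled levels rest largely on the rich libraries. Cgas+/+ replicate 5 alone supplied 77 of the 134 nuclei of subcluster 3 (57.5%), 49 of the 125 of subcluster 4 and 26 of the 74 of subcluster 5, and P301S Cgas+/- replicate 3 another 17, 43 and 9. Subcluster 3 (134 nuclei) had 3 of 4 inner arachnoid markers raised (Aldh1a2, Wnt6 and Angptl2), none among its 10 leading genes. It had the retinoic acid-degrading enzyme gene Cyp26b1 at 204 against 7.10 CPM, the organic cation transporter gene Slc22a2 at 184 against 7.57 CPM, and the BMP ligand gene Bmp6 at 3565 against 1343 CPM. The synthesis enzyme gene Aldh1a2 was at 544 against 218 CPM there, and most of these nuclei came from 1 mouse. Crabp2, the remaining inner arachnoid marker, was at 28.4 against 2.84 CPM but was detected in too few nuclei (5.22%) to count as raised. Subcluster 4 (125 nuclei) had the cystine transporter gene Slc7a11 at 5736 against 2363 CPM and Wnt4 at 448 against 106 CPM.

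Subcluster 5 (74 nuclei) had Ptgds, which encodes the prostaglandin D2 synthase of the cerebrospinal fluid, in all of its nuclei, at 6137 against 860 CPM. Slc13a4, a sulfate transporter gene, was at 1154 against 239 CPM, the organic anion transporter gene Slc22a8 at 833 against 167 CPM, and Rspo2 at 877 against 30.4 CPM. Subcluster 6 (36 nuclei) was led by Emcn, which encodes endomucin, at 329 against 2.12 CPM, with Moxd1 at 667 against 16.5 CPM and the angiopoietin gene Angpt1 at 940 against 114 CPM. Subcluster 9 (12 nuclei) was arachnoid barrier-like. It had the tight junction genes Cldn11 (842 against 40.7 CPM) and Tjp1 (3542 against 768 CPM), the cadherin gene Cdh1 (1045 against 60.5 CPM) and Dpp4 (1394 against 20.98 CPM). Of the 6 arachnoid barrier markers only 4 were raised. Slc47a1 (0 against 570 CPM) and Abcg2 (145 against 191 CPM) were lower there, and both were high in subcluster 2 (2283 and 512.5 CPM).

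The remaining 4 subclusters were led by genes of other cell classes although their nuclei had passed the rule. Subcluster 7 (19 nuclei) was excitatory neuron-like, with Rbfox3 at 925 against 19.4 CPM and a median of 10845 UMIs. Subcluster 8 (19 nuclei) was astrocyte-like, with Slc1a2 at 6247 against 99.8 CPM. Subcluster 10 (9 nuclei) tied between oligodendrocyte and progenitor markers, and subcluster 11 (8 nuclei) was microglia-like, with Inpp5d at 1617 against 4.11 CPM. Together these 55 nuclei were 6.85% of the members and held 14.7% of their UMIs. Gene comparisons are therefore also given without them.

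The makeup of the richest libraries differed from that of the others. In the 25 other libraries pooled, 35.0% of members were perivascular fibroblast-like and 29.1% were in subcluster 2. In Cgas+/+ replicate 5 these shares were 3.85% and 7.69%, and 37.0% of its members were in subcluster 3 and 23.6% in subcluster 4. In P301S Cgas+/- replicate 3, 19.0% were perivascular fibroblast-like and 35.5% were in subcluster 4. Trpm3, which encodes a cation channel abundant in meningeal cells, was at 26712 CPM in members of Cgas+/+ replicate 5 and 18697 CPM in those of P301S Cgas+/- replicate 3, above the range of the other 25 (247 to 15933 CPM, median 5668). Slc47a1 went the other way in Cgas+/+ replicate 5, at 158 CPM against a median of 760 CPM in the other 25. Of the 197 perivascular fibroblast-like nuclei, 8 were from Cgas+/+ replicate 5 and 23 from P301S Cgas+/- replicate 3, so these libraries owed their many members mainly to other subclusters.

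**Figure D1:**
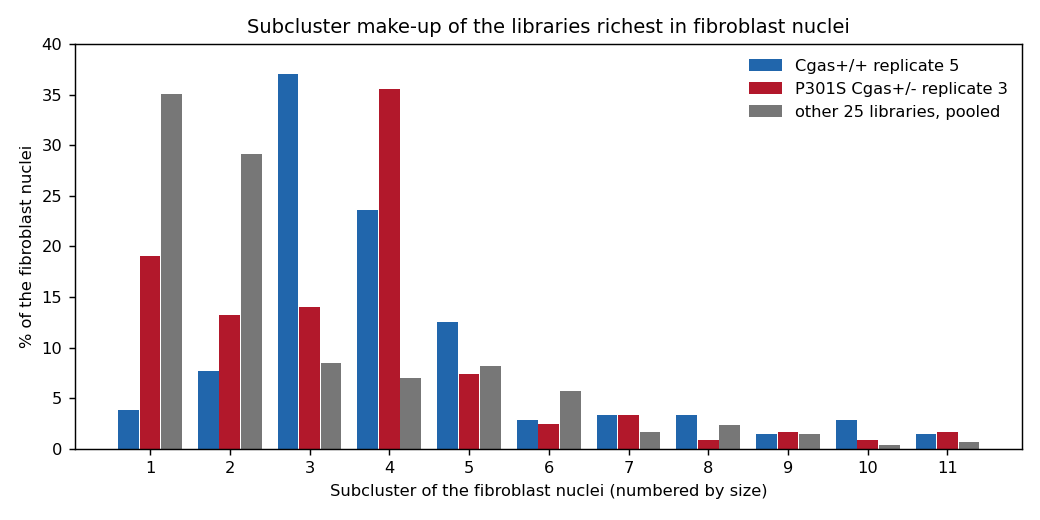
Share of fibroblast nuclei in each of the 11 subclusters (percent of the members) for Cgas+/+ replicate 5, P301S Cgas+/- replicate 3 and the other 25 libraries pooled. Subclusters 1 and 2 hold 35.0% and 29.1% of the pooled nuclei, and subclusters 3 and 4 hold 37.0% and 23.6% of those of Cgas+/+ replicate 5.

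Gene lists for fibroblast functions were compared with the other kept nuclei by level. Of the 10262 genes with at least 20 UMIs in members, 2553 (24.9%) were at least 2-fold higher than in the other nuclei, and the median ratio was 1.37. The lists ranged from 50% of such genes (3 of 6 immediate early and heat shock genes) to all of them. The counts that follow take all genes of a list, whatever their UMIs, and are descriptions, since membership rests on genes of 5 lists (Col1a1, Col1a2, Dcn, Bnc2, Slc6a13, Slc47a1 and Ranbp3l), whose levels the rule fixed. Without both rich libraries the summed level of each of the 19 lists was 0.833 to 1.28 times the value from all members.

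All 7 fibrillar collagen genes were at least 2-fold higher, summing to 912 CPM in members against 55.6 CPM in the other nuclei. Most of that sum came from the rule genes Col1a1 and Col1a2, and the other 5 summed to 385 against 53.3 CPM. Of 19 network, beaded and other collagens 18 were at least 2-fold higher (4399 against 465.7 CPM), with Col4a5 (462 against 12.2 CPM), Col4a6 (571 against 3.93 CPM) and Col23a1 (528 against 50.5 CPM) among the highest. Of 13 laminin and basement membrane genes 11 were, and Lama2 (1149 against 138 CPM) was also high in mural nuclei at 1114 CPM. Of 24 matrix glycoproteins and proteoglycans 20 were, the rule gene Dcn among them, with Efemp1, which encodes fibulin 3, at 328 against 12.3 CPM. Among 21 genes for matrix remodelling 17 were, including Adamts12 (733 against 4.65 CPM) and the metalloproteinase inhibitor gene Timp3 (680 against 36.6 CPM), while Mmp16 was lower in members (404 against 547 CPM).

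Of 21 mesenchymal transcription factor genes 19 were at least 2-fold higher and 2 were at 0. Apart from the rule gene Bnc2 18 of 20 were, at 5395 against 490 CPM, with Foxp1 at 1647 against 348 CPM, Foxp2 at 1022 against 64.6 CPM and Tbx15 at 382 against 4.18 CPM. Of 26 solute carrier and ABC transporter genes 23 were higher, and their summed level (11373 against 832 CPM) was above that in endothelial nuclei (5026 CPM). Apart from the rule genes Slc6a13 and Slc47a1 it was 10162 against 830.1 CPM. Slc6a20a, a proline transporter gene, was at 1717 against 11.3 CPM. Of 15 retinoid genes 13 were higher, among them the receptor gene Rarb (335 against 45.4 CPM) and the synthesis enzyme genes Aldh1a1 (273 against 36.4 CPM) and Aldh1a2 (264 against 0.686 CPM). Of 33 BMP and TGF-beta genes 22 were higher, 21 of 32 apart from the rule gene Ranbp3l, with Bmp6 at 1661 against 22.2 CPM and Tgfbr3 at 818 against 101 CPM. Of 29 secreted factor genes 20 were higher, with Ptgds at 1353 against 31.8 CPM and Il34, a ligand of the microglial receptor CSF1R, at 380 against 16.3 CPM. Il34 was higher still in mural nuclei (434 CPM).

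Of 15 growth factor receptor genes 10 were at least 2-fold higher. Egfr was at 488 against 53.7 CPM, while Igf1r (610 CPM) was highest in endothelial nuclei (4614 CPM). Of 15 junction and adhesion genes 8 were higher, and Cdh11 was nearly level (367 against 355 CPM). Of 14 myofibroblast and scar genes 11 were higher (8 of the 9 with at least 20 UMIs), though their levels were low, summing to 258 against 71.3 CPM. The sum was below that in mural (287 CPM), endothelial (277 CPM), ependymal (313 CPM) and choroid plexus nuclei (550.4 CPM). Fap stood at 68.5 CPM, and the smooth muscle actin gene Acta2, named after its value was seen, gave 48 UMIs that came from members of only 2 libraries. Among 10 immediate early and heat shock genes 5 were higher (3 of the 6 with at least 20 UMIs), with Egr1 at 69.4 against 11.8 CPM.

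The cGAS-STING genes themselves were near the limit of detection. In members Cgas gave 5 UMIs (2.03 CPM, against 1.85 CPM in the other nuclei and 32.5 CPM in microglial nuclei) and Sting1 gave 3 UMIs (1.22 CPM, against 26.3 CPM in microglial nuclei). Trex1, the exonuclease gene that limits cytosolic DNA, had 0 UMIs in all nuclei analysed. These counts do not show whether the genes are expressed in fibroblasts. Sting1 was at the 3 UMIs that a count of 0 would allow, and Cgas was a little above it and close to its level in the other nuclei.

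Enpp1 had the highest level of that pathway's genes relative to the other nuclei. It encodes the ectoenzyme that breaks down cGAMP, the second messenger of cGAS, outside the cell, and it also makes pyrophosphate. Members held 457 UMIs of it, 185 CPM against 3.30 CPM in the other nuclei (56.2-fold), and it was detected in 30.1% of members. The level was 5.68 CPM in mural, 1.98 CPM in endothelial and 14.2 CPM in microglial nuclei. In Cgas+/+ it stood at 206, 101, 74.5, 564 and 99.0 CPM in replicates 1 to 5, in Cgas+/- at 188 and 130 CPM, and in Cgas-/- at 152 and 208 CPM. Over the 18 P301S libraries it ran from 95.2 to 464 CPM (median 189 CPM). Every library therefore had Enpp1 in its fibroblast nuclei, and the groups overlapped. Within the members it was highest in the perivascular fibroblast-like subcluster, at 548 against 92.7 CPM in the others. Enpp1 lies at chr10:24637914-24712159 on the minus strand.

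The remaining pathway genes differed in their levels relative to the other nuclei. Ikbke, a kinase gene, was at 27.2 against 2.56 CPM, Mavs, which serves the RNA-sensing branch, at 21.5 against 4.05 CPM, Irf3 at 38.5 against 11.8 CPM and the kinase gene Tbk1 at 76.3 against 54.5 CPM. The last ratio is close to the median of all genes (1.37). Slc19a1, a folate carrier that also imports cyclic dinucleotides, was at 25.1 against 4.80 CPM and was higher in mural nuclei (75.1 CPM).

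Interferon-related and complement genes were above the pooled other nuclei, but some other classes had higher sums. Of 16 genes for interferon receptors, JAK, STAT and IRF proteins 8 were at least 2-fold higher, and their sum was 919 against 498 CPM. That was close to mural (915 CPM) and below endothelial (1430 CPM), border macrophage (1610 CPM) and microglial nuclei (1743 CPM). Of 47 interferon-stimulated effector genes 37 were at least 2-fold higher (1209 against 329 CPM), with Rnf213 at 122 against 22.7 CPM and Sp100 at 69.0 against 3.98 CPM. Border macrophage (3558 CPM), endothelial (2382 CPM) and microglial (2291 CPM) nuclei had higher sums of this list. Of 11 genes for MHC class I presentation 10 were higher (199 against 44.4 CPM), and endothelial (815 CPM), border macrophage (519 CPM) and microglial nuclei (462 CPM) stood above the members. The complement sum (672 against 66.8 CPM) was also higher in microglial (782 CPM) and border macrophage nuclei (1292 CPM) than in members. Of 10 complement genes 5 were at least 2-fold higher than in the other nuclei, with the C1 inhibitor gene Serping1 at 73.8 against 1.61 CPM.

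No contrast of the share of fibroblast nuclei passed the test. In Cgas+/+ the shares were 0.235%, 0.192%, 0.510%, 0.165% and 1.81% in replicates 1 to 5. In Cgas+/- they were 0.175% and 0.252%, and in Cgas-/- 0.380% and 0.277%. The lowest, median and highest were 0.137%, 0.212% and 0.268% in P301S Cgas+/+, 0.131%, 0.208% and 1.69% in P301S Cgas+/-, and 0.113%, 0.261% and 0.348% in P301S Cgas-/-. The 4 groups of 5 or 6 mice overlapped, and in both groups with a share above 1% a single mouse lay far above the rest. The exact binomial 95% interval was 1.58% to 2.07% for the highest share and, as all intervals here, covers counting error only.

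Tests of the share used exact two-sided permutation of mice, adjusted over the 4 contrasts. Whether P301S tau moved the share was asked with P301S Cgas+/+ (0.207% ± 0.0517, SD, n = 6) against Cgas+/+ (0.583% ± 0.701, n = 5). The difference was -0.375 percentage points (exact permutation p = 0.115, adjusted 0.459). Whether loss of Cgas moved it under tau was asked with P301S Cgas-/- (0.247% ± 0.0886, n = 6) and P301S Cgas+/- (0.454% ± 0.609, n = 6) against P301S Cgas+/+. The differences were 0.0393 points (exact permutation p = 0.361, adjusted 0.494) and 0.247 points (exact permutation p = 0.494, adjusted 0.494).

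All 18 P301S mice (0.303% ± 0.353) and the 9 others (0.444% ± 0.525) differed by -0.141 points (exact permutation p = 0.465, adjusted 0.494). This last value hung on the rich libraries. Without P301S Cgas+/- replicate 3 it was -0.223 points (exact permutation p = 0.0350, not adjusted), and without Cgas+/+ replicate 5 it was 0.0296 points (exact permutation p = 0.931). Without both rich libraries the differences were -0.0681 points for tau (exact permutation p = 0.414), 0.000243 for loss of 1 Cgas copy (exact permutation p = 0.998) and -0.0519 for all P301S mice (exact permutation p = 0.188). Within the 15 libraries of header version 3.1.0 the difference for all P301S mice was -0.491 points (exact permutation p = 0.0484, not adjusted). Within the 12 of version 3.0.2 it was -0.0191 points (exact permutation p = 0.662). Both rich libraries are of version 3.1.0, where the only mice without P301S are 3 Cgas+/+ mice, replicate 5 among them. Cgas+/- and Cgas-/- mice are only in version 3.0.2. All 12 libraries of version 3.0.2 are male and 11 of the 15 of version 3.1.0 are female, so version overlaps with sex. Within versions 3.0.2 and 3.1.0 the tau difference was -0.0347 and -0.607 points, that for loss of both copies 0.0698 and 0.0240, and that for loss of 1 copy 0.0917 and 0.325 (exact permutation p from 0.114 to 0.914). Within version 3.0.2 each of these contrasts had 2 against 2 mice, where the exact permutation p cannot fall below 0.333.

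**Figure D2:**
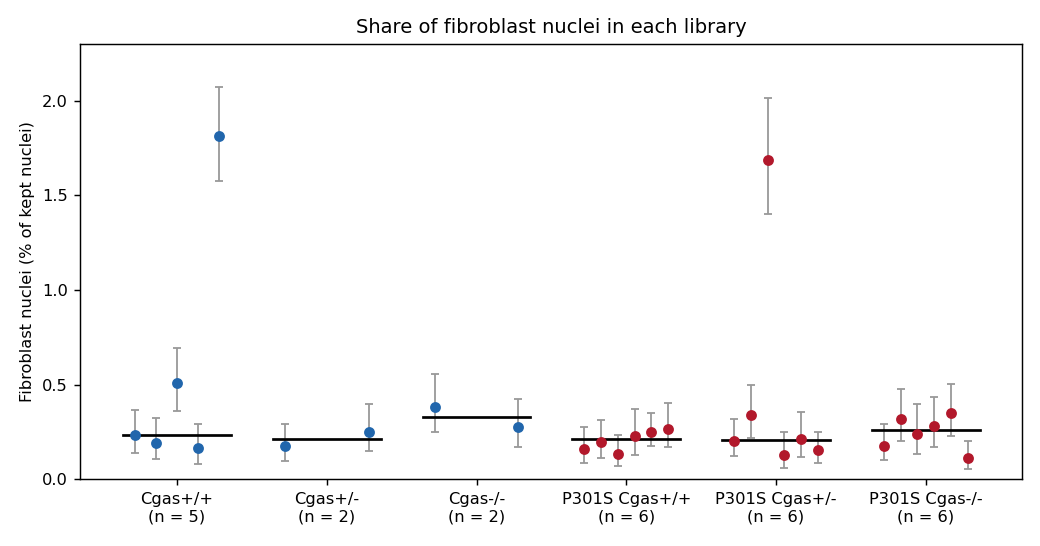
Share of kept nuclei that were fibroblast members in each of the 27 libraries (percent), by genotype, with the group medians and the exact binomial 95% interval of each point. Cgas+/+ replicate 5 (1.81%) and P301S Cgas+/- replicate 3 (1.69%) lie apart from the other 25, which run from 0.113% to 0.510%.

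Across the 27 mice the fibroblast share was set against the shares of gated vascular and choroid plexus nuclei, 3 relations in all. With endothelial nuclei Pearson's r was 0.45 (permutation p = 0.0197, adjusted 0.0592) and Spearman's rho 0.35 (permutation p = 0.0705, adjusted 0.120). Without the 2 mice farthest from the median endothelial share r was 0.17, so the value over all mice rested on them, and without both rich libraries r was 0.13 and rho 0.26. Within header version 3.0.2 r was -0.05 and rho -0.11, and within version 3.1.0 they were 0.77 and 0.65. With mural nuclei r was 0.02 (permutation p = 0.915, adjusted 0.917) and rho 0.34 (permutation p = 0.0802, adjusted 0.120). Without both rich libraries r was 0.39 and rho 0.42, and r was 0.50 within version 3.0.2 and 0.24 within version 3.1.0. With choroid plexus nuclei r was -0.04 (permutation p = 0.917, adjusted 0.917) and rho 0.01 (permutation p = 0.974, adjusted 0.974).

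The median UMI count per fibroblast nucleus, which bears on which nuclei reach 3 detected genes, differed by 196 between P301S Cgas+/+ and Cgas+/+ (exact permutation p = 0.684) and by 285 between all P301S mice and the others (exact permutation p = 0.230). It differed by -70.8 for loss of both Cgas copies (exact permutation p = 0.866) and by 114 for loss of 1 copy (exact permutation p = 0.788). P-values are two-sided.

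Gene levels in fibroblast nuclei were compared with member counts summed per mouse and edgeR's quasi-likelihood test. Fits used mice with at least 10 members, so P301S Cgas+/- replicate 4 (9 members) was left out. The contrasts share libraries, and the tau, deletion and heterozygous contrasts all use P301S Cgas+/+. For the tau contrast (6 against 5 mice) 20 of 5543 genes were called at an adjusted p under 0.05 (0.361% of those tested), all lower in P301S Cgas+/+. For all P301S against all other mice (17 against 9), 70 of 5448 were called (1.28%), again all lower with P301S, and 13 genes were in both sets. DESeq2 called 29 and 90 genes in these contrasts, of which 18 and 69 were also called by edgeR. These calls did not hold under every setting. With at least 2 rule genes 0 and 0 genes were called and the tau differences of Ptprn2, Ank3 and Agbl4 turned positive (0.00229, 0.11 and 0.36), with depth as a covariate 0 and 21 were called, and with no upper limit on genes 2 and 0. Loss of 1 Cgas copy (5 against 6 mice) and of both (6 against 6) gave 0 calls of 5543 by edgeR (0%) and 0 by DESeq2, with 151 and 234 genes at an unadjusted p under 0.05.

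For the tau contrast the smallest p belonged to Ptprn2 (dense-core vesicles), Nrg1 (neuregulin 1), Arpp21, Fam19a2, Ank3 (ankyrin G of the axon initial segment) and Cntn5 (a neuronal adhesion protein). Ptprn2 had a log2 difference of -2.46 ± 0.43 (SE, edgeR, adjusted p = 0.00665) and stood at a median level of 222 CPM without the transgene (Cgas+/+) and of 43.5 CPM with it. Dab1, which encodes the adaptor of reelin signalling, shows the values behind such a call. In Cgas+/+ it stood at 2043, 1230, 386, 282 and 907 CPM in replicates 1 to 5, and in P301S Cgas+/+ it ran from 38.1 to 279 CPM (median 163). Those groups did not overlap, and the fitted log2 difference was -2.51 ± 0.48 (SE, adjusted p = 0.0137 by edgeR).

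For all P301S mice the smallest p belonged to Egfem1 (log2 difference -1.62 ± 0.26, SE, adjusted p = 0.00103 by edgeR). Its lowest, median and highest levels were 121, 323 and 958 CPM without P301S and 64.4, 109 and 244 CPM with it, so the ranges overlapped. Glutamate receptor genes (Grin1, Grin2a, Grin2b, Gria1, Gria2 and Grm5), Camk2a, Syt1 and the neuronal splicing factor gene Rbfox3 were among the 70. For Grin2b the log2 difference was -1.47 ± 0.28 (SE, adjusted p = 0.0046 by edgeR).

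None of the called genes was in any of the 19 gene lists for fibroblast, interferon or immune functions. Only 201 list genes were tested for tau and 198 for all P301S mice, so at the shares called over all genes (0.361% and 1.28%) at most a few calls would fall in the lists, and a count of 0 does not set them apart. Of the 20 genes called for tau 19 stood higher in the other nuclei than in members, with a median ratio of 4.90, and of the 70 for all P301S mice all 70 did, with a median ratio of 4.74. The exception was Ckb, the brain creatine kinase gene, at 86.0 CPM in members and 59.1 CPM in the other nuclei. Both median ratios are of the other nuclei to members. Taken as members to other nuclei, the median over the 10262 genes with at least 20 UMIs in members was 1.37.

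The 55 nuclei led by genes of other classes moved with these calls. They held 51.6% of the members' UMIs of the 20 genes and 45.7% of those of the 70, against 14.7% of all their UMIs. By group they were 30 of 291 members in Cgas+/+, 5 of 32 in Cgas+/-, 1 of 47 in Cgas-/-, 4 of 118 in P301S Cgas+/+, 12 of 204 in P301S Cgas+/- and 3 of 111 in P301S Cgas-/-. These counts pool nuclei over mice. Cgas+/+ replicate 5 gave 23 of the 30, and P301S Cgas+/- replicate 3 gave 8 of the 12. The excitatory neuron-like subcluster had 15 nuclei in 7 of the 9 libraries without P301S and 4 nuclei in 1 of the 18 with it.

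The summed level of 5 excitatory neuron markers (of which the rule capped Slc17a7) also had a higher median without P301S. Its lowest, median and highest values were 48.0, 484 and 720 CPM in members without P301S and 88.1, 154 and 333 CPM in those with it. Without the 55 nuclei the values were 48.0, 170 and 243 CPM against 47.7, 157 and 276 CPM, and the ranges nearly coincided. Without those nuclei 0 genes were called by edgeR for the tau contrast (6 against 5 mice, smallest adjusted p = 0.160, 138 genes at an unadjusted p under 0.05) and 0 for all P301S mice (16 against 9, smallest adjusted p = 0.999, 147 genes). Leaving out each library in turn gave 5 to 40 calls for tau and 26 to 85 for all P301S mice. Without both rich libraries 9 and 55 genes were called (6 against 4 and 16 against 8 mice). With doublets marked by Scrublet removed 0 and 0 were called, but only 3 against 3 and 10 against 4 mice then kept 10 members, so fewer nuclei and fewer mice cannot be told apart there.

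**Figure D3:**
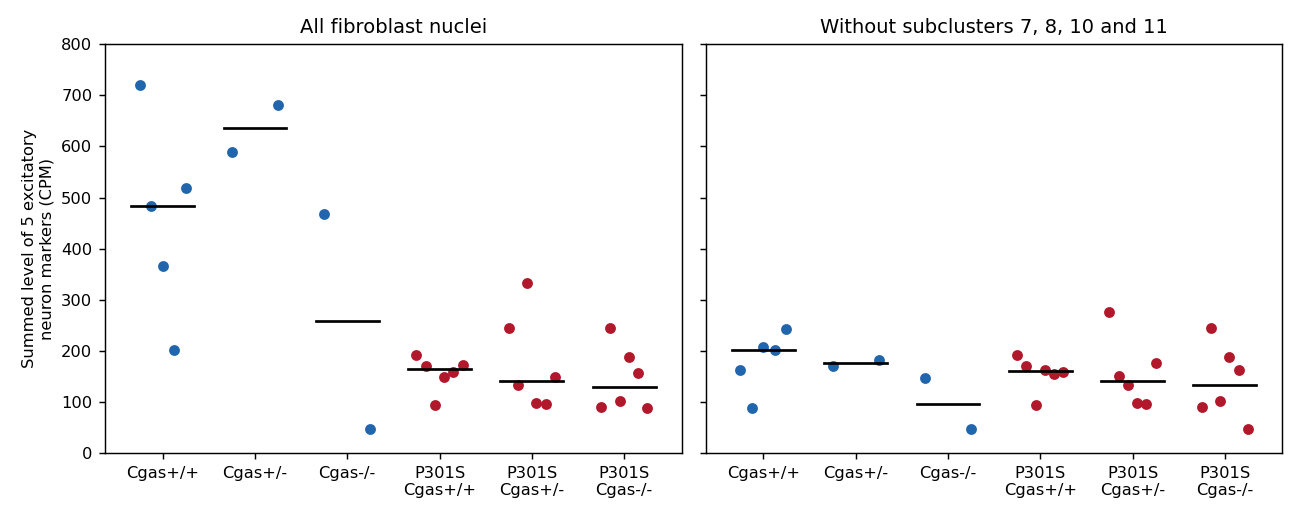
Summed level of 5 excitatory neuron markers (CPM) in the fibroblast nuclei of each library by genotype, with all members (left) and without subclusters 7, 8, 10 and 11 (right), where bars are group medians. The 9 libraries without P301S have a median of 484 CPM on the left and 170 CPM on the right, and the 18 with it have medians of 154 and 157 CPM.

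No gene of the 19 lists passed the test in any contrast, so fibroblast genes are given by their values. For tau, Abca8a, which encodes a lipid transporter and was high in the perivascular fibroblast-like subcluster, had a log2 difference of 1.40 ± 0.39 (SE, adjusted p = 0.148 by edgeR). Its levels were 58.8, 40.3, 54.2, 322 and 112 CPM in Cgas+/+ replicates 1 to 5 and 216 to 464 CPM in P301S Cgas+/+, overlapping through replicate 4. The makeup of the members differed between these groups too. The perivascular fibroblast-like subcluster held 10.5%, 21.4%, 7.69%, 81.8% and 3.85% of the members in Cgas+/+ replicates 1 to 5, and 15.4%, 33.1% and 56.3% (lowest, median and highest) in P301S Cgas+/+. Its part in the differences for tau was not tested. Its median share was 35.2% over all P301S mice and 35.7% over those without P301S. Cgas+/+ replicate 4 had 11 members and the highest Lama1 level of all libraries (3625 CPM). Ebf2, a mesenchymal transcription factor gene, had 1.36 ± 0.42 for tau (SE, edgeR adjusted p = 0.215) and -1.23 ± 0.42 for loss of both Cgas copies (SE, edgeR adjusted p = 0.9999).

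For all P301S mice the matrix gene Efemp1 had a log2 difference of 0.81 ± 0.24 (SE, adjusted p = 0.0822 by edgeR). Its lowest, median and highest levels were 103, 259 and 367 CPM without P301S and 176, 355 and 628 CPM with it. The signal transducer gene Stat3 had 0.80 ± 0.24 (SE, edgeR adjusted p = 0.0993), with 40.3, 126 and 265 CPM without P301S and 77.1, 232 and 349 CPM with it. Both ranges overlapped. These genes and those of the next paragraphs with an unadjusted p under 0.05 were named after their values were seen.

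The lists as wholes are described by their counts and medians. A gene of few UMIs could enter them through the libraries of 1 side of a contrast alone. For all P301S mice the median log2 fold change of the lists lay between -0.09 (complement) and 0.29 (interferon receptors, JAK, STAT and IRF), apart from interferon-stimulated effectors at 0.44 and the single MHC class I gene tested at 0.71. The median of all 5448 genes was 0.01. Of 9 laminin and basement membrane genes tested 6 were positive, of 17 network, beaded and other collagens 14, of 14 matrix glycoproteins 13 and of 21 transporters 11. For tau 14 of 14 mesenchymal transcription factors were positive with a median of 0.30 and 15 of 17 network, beaded and other collagens with a median of 0.34, against 0.02 over all genes. Without the 55 nuclei these became 11 of 14 (median 0.12) and 12 of 17 (0.18), against -0.02. For all P301S mice without those nuclei the collagens were 15 of 17 (median 0.15) and the matrix glycoproteins 9 of 15 (0.06), against 0.04 over all genes. Slc6a13 had -0.07 ± 0.26 and Col1a2 0.30 ± 0.17 (SE). Enpp1 had 0.43 ± 0.29 for all P301S mice and 0.31 ± 0.39 for loss of both Cgas copies (SE), and neither passed the test (edgeR adjusted p = 0.913 and 0.9999).

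Interferon-stimulated genes are of interest because cGAS signals to them. Of the 47 effectors 16 could be tested, and 14 were positive for all P301S mice, with a median log2 fold change of 0.44 against 0.01 over all genes. The count filter could pass a gene of few UMIs through its P301S libraries alone, where such a gene is then higher. The counts of positive effectors, here and below, are therefore a description and no support for a difference. None passed the adjusted test. Of all 5448 genes tested 414 had an unadjusted p under 0.05 by edgeR, and of the 16 effectors 6 had. They were Oasl2 (1.18 ± 0.44), the RNA sensor gene Ifih1 (1.16 ± 0.44), Rnf213 (0.89 ± 0.36), Ifi35 (1.39 ± 0.63), Ifit2 (1.10 ± 0.50) and Ddx60 (1.01 ± 0.48), each as log2 fold change ± SE with edgeR adjusted p between 0.305 and 0.633.

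The counts behind these genes were small. Oasl2 stood at 0, 20.2 and 58.8 CPM without P301S and 0, 61.6 and 244 CPM with it (lowest, median and highest). Ifih1 stood at 0, 20.3 and 48.0 CPM and 0, 49.9 and 114 CPM. Rnf213 stood at 25.3, 80.7 and 162 CPM and 24.2, 139 and 573 CPM. For each of them the ranges overlapped, and the highest library carried P301S.

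The effectors were placed side by side over the contrasts, which share libraries. For tau 13 of 16 were positive with a median of 0.82, for loss of both Cgas copies 9 of 16 with a median of 0.06, and for loss of 1 copy 5 of 16 with a median of -0.41. Rnf213 had 0.99 ± 0.48 for tau, -0.95 ± 0.48 for loss of both copies and -0.96 ± 0.49 for loss of 1 copy (SE), with edgeR adjusted p of 0.775, 0.9999 and 0.9995. Without the 55 nuclei led by other classes 12 of 16 were positive for tau (median 0.58), 15 for all P301S mice (0.46), 8 for loss of both copies (0.02) and 4 for loss of 1 copy (-0.55). Fewer effectors then had an unadjusted p under 0.05 by edgeR. There were 3 in place of 6 for all P301S mice, where 147 of 5025 genes had, and 0 in place of 1 for tau. No effector passed the adjusted test in any of these fits.

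**Figure D4:**
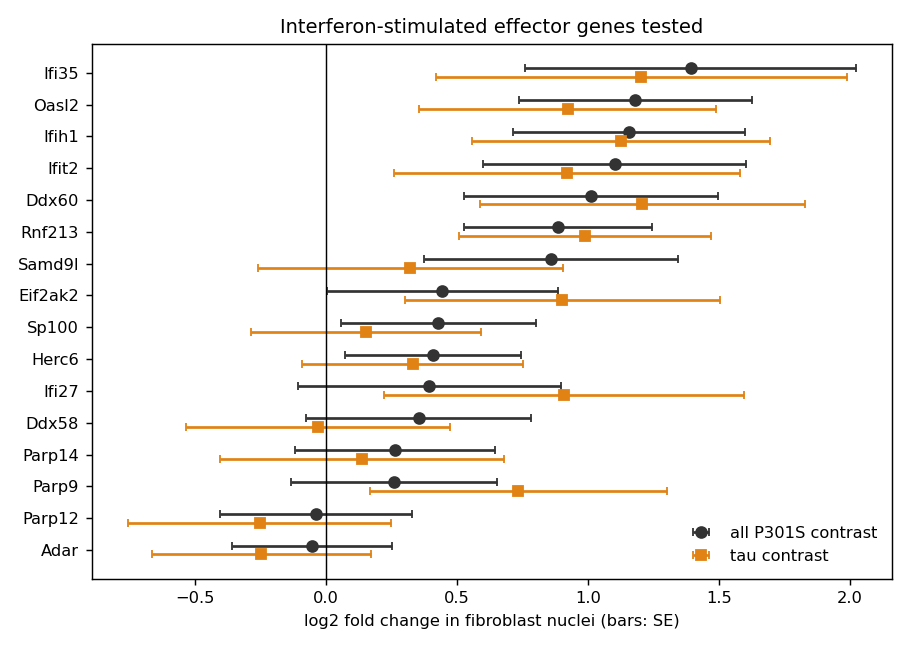
Log2 fold change with SE (edgeR) of the 16 interferon-stimulated effector genes tested in fibroblast nuclei, for all P301S mice against the others and for P301S Cgas+/+ against Cgas+/+. For all P301S mice 14 of the 16 points lie right of 0, from -0.05 for Adar to 1.39 for Ifi35, and none passed the adjusted test.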

How the data were processed

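Single nuclei of mouse hippocampus were profiled with 10x Chromium. Values are unnormalized UMI counts as deposited. The authors aligned reads to mm10 with Cell Ranger, counted pre-mRNA reads and called barcodes with its defaults. The study's methods name version 3.1.0, while the file headers name 3.0.2 or 3.1.0, and the submitters' notes also list Seurat 3.0. Barcodes over the gene limit used here are still present in the files. The annotation release is not given in the sources used here, and positions are from GENCODE on GRCm38, matched by gene ID. Cgas is listed as Mb21d1 and Sting1 as Tmem173.

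Barcodes under 200 or over 4000 genes, or over 5% mitochondrial UMIs, were dropped. The members, gene lists and markers were chosen with earlier results of these data known. Scrublet marked doublets at a rate of 0.8% per 1000 barcodes, which were removed only in an alternative. Each library is 1 mouse, as far as the labels tell, and nuclei of a mouse were not treated as replicates. Member counts were summed per mouse with at least 10 members and tested with edgeR 4.0.16 (TMM, filterByExpr with a minimum count of 3 and total of 15, robust quasi-likelihood fit, sex as a covariate, Benjamini-Hochberg adjusted p under 0.05). The tau, deletion and heterozygous contrasts were fitted on Cgas+/+ and the 3 P301S groups. The contrast of all P301S mice used all groups, with Cgas copies as a factor. The edgeR test reports no SE. Each SE given with an edgeR log2 difference was derived as its absolute value divided by the square root of the test's F. DESeq2 1.42.0, other filters and other membership rules were alternatives. Shares used exact permutation over mice, which enumerated all splits, and their binomial intervals used scipy 1.17.1. The scripts were tested on simulated data.

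Members were clustered (scanpy 1.11.5, 1000 variable genes, 15 components, Leiden resolution 0.6). A subcluster was named from at least 3 raised markers, more than for any other class, with at least 1 among its 10 leading genes. The last condition was set after seeing the subclusters. Genes named were those of the rule and of the cGAS-STING list, the 4 highest of each list, the 20 of highest ratio, up to 20 called per contrast, the 5 leading each subcluster and the 5 most like Slc6a13. A few genes that this rule names are not reported here. Further subcluster and list genes were named after their values were seen. Leaving out the subclusters led by other classes, the 2 libraries of over 100 members, and the header version were alternatives chosen after seeing the data.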

Additional observations from a re-analysis of the deposited data

Results flagged for a closer look

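In groups of 5 or 6 mice, 4 values lay farther from the rest of their group than Dixon's 95% limit, which chance passes in about 1 in 20 groups. The share of fibroblast nuclei was 1.81% in Cgas+/+ replicate 5, where the gap to the next mouse was 0.79 of the group's range. It was 1.69% in P301S Cgas+/- replicate 3, with a gap of 0.867 of the range. The median UMI count per fibroblast nucleus was 4363 in P301S Cgas+/+ replicate 3 (0.669 of the range). The summed level of the 12 fibroblast genes outside the rule was 6162 CPM in Cgas+/+ replicate 4 (0.714 of the range), a library of 11 members.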

How the results depend on the processing

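The counts of called genes moved with the membership rule, the mice left in the fit, the covariates and the filter. For the tau contrast (20 genes) 0 were called with at least 2 rule genes, 0 without doublets (3 against 3 mice in place of 6 against 5), 0 with depth as a covariate and 0 without the subclusters led by other classes. The count was 2 with no upper limit on genes, 38 without members holding astrocyte, microglia or choroid plexus UMIs (6 against 4 mice), 12 with the default minimum count, 93 with no filter and 9 without the 2 libraries of over 100 members. For all P301S mice (70 genes) the count was 0 with at least 2 rule genes, 0 with no upper limit, 0 without doublets (10 against 4 mice in place of 17 against 9) and 0 without those subclusters. It was 152 with no filter, 127 without sex, 21 with depth and 14 with at least 20 members per mouse (6 against 4 mice). The deletion contrast (0 genes) gave 2 with at least 2 rule genes, 5 without doublets (5 against 3 mice), 4 with no filter and 15 with at least 20 members (2 against 2 mice), and the heterozygous contrast (0 genes) gave 1 with at least 20 (2 against 2). Leaving out 1 library gave 5 to 40 calls for tau (lowest without P301S Cgas+/+ replicate 2, highest without Cgas+/+ replicate 4), 26 to 85 for all P301S mice (lowest without Cgas+/- replicate 1) and 0 for the others. The cause was not tested.

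Shares kept their direction except for loss of both Cgas copies after thinning to 1000 UMIs (-0.00955 points) and among fibroblast, mural and endothelial nuclei (-2.42 points), and for all P301S mice without Cgas+/+ replicate 5 (0.0296 points). Within header version 3.1.0, with only 3 mice without P301S, the difference for all P301S mice was -0.491 points. Leave-one-out differences were -0.480 to -0.0681 points (tau), 0.0189 to 0.0660 (deletion), 0.000243 to 0.312 (heterozygous) and -0.223 to 0.0296 (all P301S). Median UMIs per nucleus ranged from -93.1 to 406 (tau), -228 to 218 (deletion), -34.5 to 404 (heterozygous) and 200.3 to 399 (all P301S). They turned for 1 Cgas copy without the 2 libraries (-34.5), and within header version 3.0.2 for tau (-275.5) and both copies (479).

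For named genes called in the reported fit, settings other than leaving out 1 library left 366 values called in the same direction, lost the call in 237 and turned the direction in 7, while leaving out 1 library kept 826 and lost 134. Over all named genes, called or not, 6 gained a call and 11 turned. With at least 2 rule genes the log2 fold change for tau was 0.00229 for Ptprn2, 0.11 for Ank3, 0.0587 for Camk2a and 0.36 for Agbl4, for the deletion contrast -0.75 for Basp1, and for the heterozygous contrast -0.0506 for Ncoa7 and -0.0262 for Basp1. By DESeq2 Dapk1 was 0.16 (deletion). Without the subclusters led by other classes Grin2b was 0.0354, Kcnq3 0.14 and Ptprn2 0.12 for all P301S mice. Requiring 4 rule genes left too few members for a gene test and was not run. No paired analysis was possible because the labels carry no replicate numbers, and those used here only name mice. Few members per mouse limit these fits, with a median SE of 0.47 on the log2 scale for tau.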
